A study of Mus musculus with 22 samples.

Results

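The 8 coagulation and fibrinolysis genes F3, Thbs1, Vwf, Tfpi, Thbd, Procr, Plat and Plaur were followed across mouse spinal cord taken after the aorta had been clamped or after sham surgery. They were chosen by name, 8 of the 18193 genes with a probe set of their own, and each was read from the probe set with the highest mean over all arrays among those that carry its symbol alone. All mice were wild-type C57Bl/6 animals aged 10 to 12 weeks, and the clamp lasted 7.5 min. Each array held RNA of either the cord above T6, called rostral, or the cord below it, called caudal. The rostral groups held 4 arrays after sham surgery, 3 at 24 h and 4 at 48 h after the clamp, and the caudal groups held 3 arrays after sham surgery, 3 at 24 h and 4 at 48 h. The time of sampling after sham surgery was not given in the sources used here, nor whether arrays of a group are separate animals. The p-values thus reflect the spread among samples, which may be technical. One rostral array, numbered 276, has labels for both times and was assigned to neither.

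Coagulation starts when blood meets tissue factor, the product of F3, which binds factor VII and leads to thrombin and fibrin. Endothelium restrains this cascade through tissue factor pathway inhibitor (Tfpi) and through thrombomodulin (Thbd) and the endothelial protein C receptor (Procr), which together turn thrombin towards activating protein C. Fibrin is then cleared by plasmin, which tissue plasminogen activator (Plat) and urokinase on its receptor (Plaur) release from plasminogen. In the central nervous system astrocytes make tissue factor, and neurons and endothelium make tissue plasminogen activator.

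In cord below T6 at 48 h, Plaur and Procr rose the most against sham, about 6-fold each, with smaller rises of Plat, Tfpi and F3. Thbd and Thbs1 had higher means and Vwf a lower mean there, but none of these passed the test. In cord above T6, and at 24 h in either region, none of the 8 genes passed it. Every difference below is on the log2 scale of the deposited signals, where 1 unit is a doubling, and a gene is counted as changed where its limma p-value, adjusted by Benjamini-Hochberg over all 18193 genes, is under 0.05.

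Promoter sequence from RefSeq (build GRCm38.p6) was at hand for 4 of the 8 genes, in 5 windows of 250 bases before a transcript start. Of these, F3, Plaur and Procr are shown because each rose in caudal cord at 48 h and their windows share a 7-letter word. The capitals mark the AP-1 letters TGAGTCA or, on the other strand, TGACTCA. The windows lie at chr3:121723287-121723536 for F3, chr7:24462233-24462482 for Plaur and chr2:155750967-155751216 for Procr, all on the plus strand, and are written 5′ to 3′.
F3: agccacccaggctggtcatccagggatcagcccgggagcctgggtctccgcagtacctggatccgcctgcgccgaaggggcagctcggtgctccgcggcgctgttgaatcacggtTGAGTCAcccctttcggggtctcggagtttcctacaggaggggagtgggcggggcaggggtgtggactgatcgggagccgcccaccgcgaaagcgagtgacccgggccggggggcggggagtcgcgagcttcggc
Plaur: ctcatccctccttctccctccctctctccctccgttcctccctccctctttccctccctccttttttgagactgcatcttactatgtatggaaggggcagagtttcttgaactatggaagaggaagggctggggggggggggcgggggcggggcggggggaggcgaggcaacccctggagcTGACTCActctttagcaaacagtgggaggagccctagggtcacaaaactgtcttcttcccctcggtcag
Procr: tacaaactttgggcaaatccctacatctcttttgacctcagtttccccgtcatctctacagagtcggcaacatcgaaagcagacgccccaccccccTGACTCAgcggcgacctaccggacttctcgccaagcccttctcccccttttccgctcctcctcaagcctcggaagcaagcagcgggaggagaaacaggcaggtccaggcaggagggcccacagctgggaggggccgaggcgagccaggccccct
The AP-1 letters stood at -135 to -129 from the start in F3, at -69 to -63 in Plaur and at -154 to -148 in Procr. They were in 4.46% of all 32851 windows of the same length and in neither of the windows of Tfpi, which also rose. All 4 genes with a window rose in caudal cord at 48 h, and the motifs were chosen with earlier results of these data known. These shares thus cannot show whether the letters go with a rise. Letters of an NF-kappaB motif (GGANTTTCC or GGAATTCCC, in 1.27% of windows) were found in F3 only, at -112 to -104. The EGR1 letters GCGGGGGCG (2.57% of windows) were found in Plaur only, where they overlap its GC boxes. The GC box GGGCGG (32.7%) was in F3, Plaur and both windows of Tfpi, and the KLF letters CACCC (52%) were in F3, where one copy overlaps the AP-1 letters, in Procr and in Tfpi. TATAAA (12.4%) was in Tfpi alone. The letters of STAT (TTCNNNGAA, 7.02%), of the hypoxia element (ACGTG, 16.6%), of ETS (CCGGAA, 12%) and of CRE (TGACGTCA, 1.55%) were in none of the 5 windows. Both strands were searched for every motif, and a match of letters is a description of the sequence, not a binding site.

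The medians of all 22 arrays lay between 6.79 and 6.88. Some arrays stood apart. Caudal array 271 at 48 h had a narrower spread over probe sets (SD 2.05, against 2.21 to 2.27 on the other 21 arrays), and caudal arrays 274 (48 h) and 280 (sham) had a low 5′ minus 3′ Gapdh signal (-1.05 and -0.68, against -0.21 to 0.04 on the other 20), a sign of RNA quality. Both 24 h arrays numbered 283 went against their region labels: Hoxc10, a gene of the caudal cord, read 5.67 on the array labelled caudal (9.19 to 10.48 on the other 9 caudal arrays) and 10.14 on the array labelled rostral (5.32 to 6.22 on the other 11). The labels were kept. Calls that were lost without these arrays, and the 24 h values of Thbs1, are also given without them. Neuronal markers (6 genes) averaged at least 11.64 on every grouped array. They averaged 11.64, 12.51, 12.62 and 12.54 on caudal 48 h arrays 271 to 274, below the 12.65 to 12.77 of caudal sham. In that comparison 2 of the 6 fell and 0 rose, with a median change of -0.38, where 12.5% of all genes were called. An unadjusted p under 0.05 was found for 5 of the 6 and for 34.3% of all genes. The part of the neuronal markers in the values of the 8 genes was not tested.

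**Figure D1:**
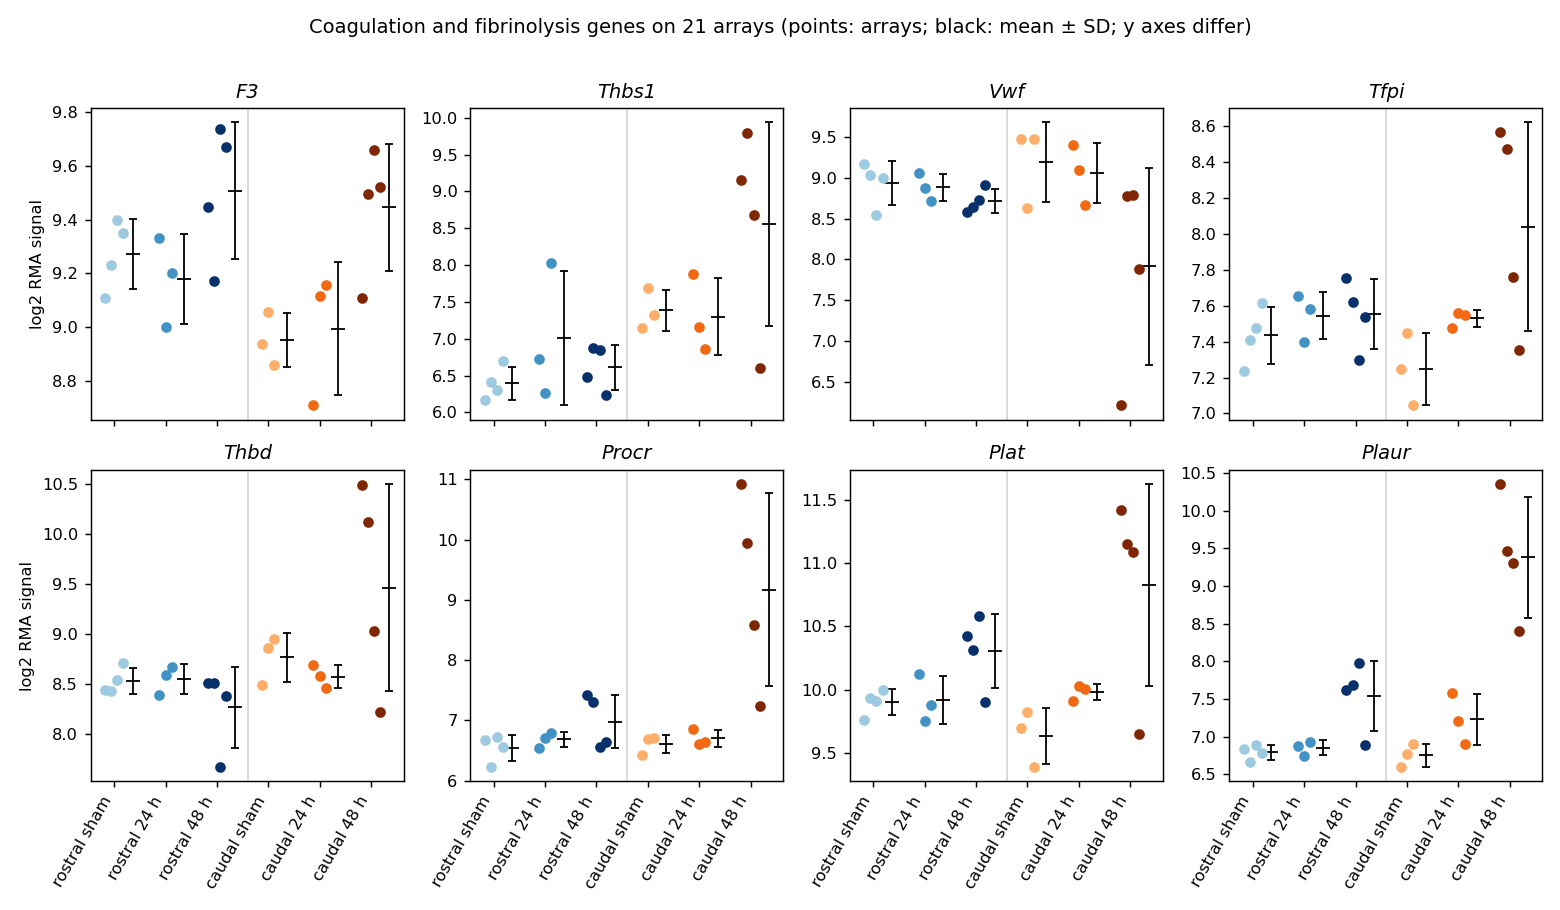
Log2 RMA signal (y axis, a scale of its own for each gene) of the 8 genes on the 21 grouped arrays, by region and time (x axis). Points are arrays and the black marks give the group mean ± SD. Plaur is the one gene whose 4 caudal 48 h arrays, from 8.40 to 10.36, lie above every array of the other groups, and in Vwf the lowest point is caudal array 271 at 6.21.

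Of the 8 genes, 5 rose and 0 fell in caudal cord at 48 h against caudal sham. Among all genes 12.5% were called in this comparison, 5.52% as higher. The median change of the 8 genes was 0.98, and that of all genes was 0.00. Arrays of the groups did not overlap for 3 of the 8 genes (F3, Plaur and Procr), as was the case for 20% of all genes. The count of 5 fell to 2 without caudal sham array 280 and to 3 without caudal sham array 278. It was 1 (Plaur) when only these groups were fitted. Without caudal array 274 all 8 were called, Vwf among them as lower (-1.27, adjusted p = 0.0433). Without caudal arrays 271 and 274 the count was 7, and Vwf was not among them. The same test above T6, rostral 48 h against rostral sham, called 0 of the 8 genes (0.61% of all genes), with a median change of 0.23 against -0.02 over all genes. One member, Plaur, had an unadjusted p under 0.05 there, as did 7.08% of all genes.

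**Figure D2:**
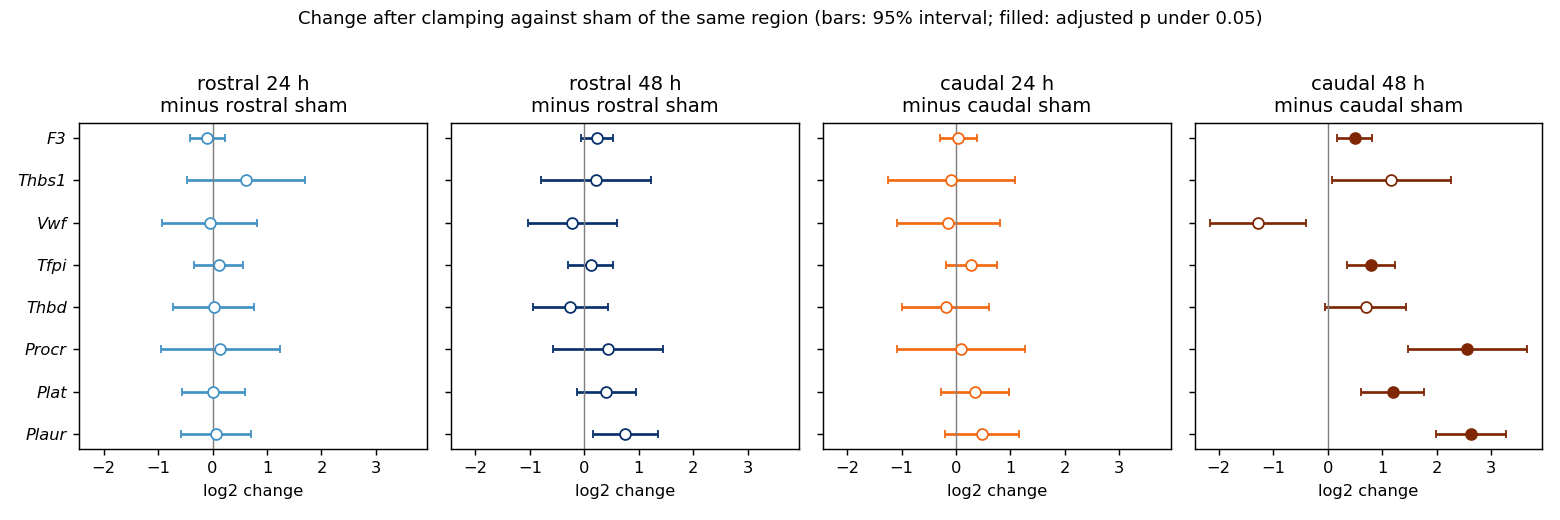
Log2 change (x axis) of the 8 genes against sham of the same region, with 95% intervals, in a panel for each region and time. Filled points passed the adjusted p of 0.05: 5 genes in caudal cord at 48 h, from F3 at 0.50 to Plaur at 2.63, and none in the other panels.

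F3 (chr3:121723537-121735052) encodes tissue factor, the starter of the cascade. Its log2 signal was 9.11, 9.49, 9.66 and 9.52 on caudal 48 h arrays 271 to 274, and 8.94, 9.06 and 8.86 on the caudal sham arrays. All 4 clamped arrays lay above the 3 sham arrays, and array 271 was the lowest of them. F3 rose by 0.50 (SE 0.15), 1.41-fold, with an adjusted p of 0.0386. That call was lost on leaving out caudal array 272, caudal array 273, caudal sham array 278, 279 or 280, or rostral sham array 278, with adjusted p between 0.0504 and 0.126, and without both arrays numbered 283 it was 0.0561. In rostral cord F3 read 9.45, 9.17, 9.74 and 9.67 at 48 h, against 9.11, 9.23, 9.40 and 9.35 after sham surgery. These groups overlapped, and the difference of 0.23 (SE 0.14, adjusted p = 0.896) did not pass. At 48 h caudal and rostral cord had nearly the same mean, 9.45 ± 0.24 (SD, n = 4) and 9.51 ± 0.25 (SD, n = 4), while in sham cord the caudal arrays lay lower by 0.32 with no overlap (unadjusted p = 0.0465, adjusted p = 0.889). How many of all genes had no overlap between the sham groups was not counted. Rostral 48 h headed the order of group means and caudal sham closed it, with each group overlapping the next.

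Thbs1 (chr2:118111876-118127133) encodes thrombospondin 1, a matrix glycoprotein that platelets release and that binds CD36 and CD47. On caudal 48 h arrays 271 to 274 it read 9.15, 9.79, 8.68 and 6.60. Caudal sham arrays read 7.14, 7.70 and 7.32. Of the clamped arrays 3 lay above all sham arrays and 1, array 274, lay below them. The mean difference was 1.17 (SE 0.52, 2.25-fold) and the adjusted p 0.123; without array 274 it was 1.82 with an adjusted p of 0.00153. Above T6 Thbs1 read 6.49, 6.88, 6.85 and 6.24 at 48 h and 6.17, 6.42, 6.31 and 6.69 after sham surgery, with a difference of 0.22 (SE 0.48, adjusted p = 1). In sham cord each caudal array lay above each rostral one, by 0.99 on average (SE 0.52), and this difference did not pass (adjusted p = 0.926), though a fit of these groups alone gave it an adjusted p of 0.00123. The share of all genes without overlap between the sham groups was not counted. On the other probe set of Thbs1 the sham difference was 0.50 (SE 0.47, adjusted p = 0.88 over all probe sets), and the change in caudal cord at 48 h was 1.11 (SE 0.47, adjusted p = 0.123). The mural cell and meningeal fibroblast markers (8 genes) also lay higher in caudal sham, from 9.93 to 10.10 against 9.34 to 9.61 in rostral sham. Their median difference was 0.60, with 0 of 8 called and 5 of 8 at an unadjusted p under 0.05 (5.51% of all genes). Schwann cell markers differed more, with a median of 2.00 and 3 of 4 measured called as higher, where 0.335% of all genes were called. The part of either list in the sham difference of Thbs1 was not tested. At 24 h the arrays labelled rostral read 6.73, 6.27 and 8.03, the last being array 283, and those labelled caudal read 7.87, 7.17 and 6.86, again with array 283 last. On both arrays numbered 283 Thbs1 thus lay on the side of the other region, as Hoxc10 did.

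Vwf (chr6:125552948-125686679) encodes von Willebrand factor, the multimeric protein by which platelets adhere to injured vessels, made by endothelium and megakaryocytes. It was the one gene of the 8 with a lower mean below T6 at 48 h. Its signal was 6.21, 8.77, 8.79 and 7.88 on arrays 271 to 274, and 9.47, 8.63 and 9.47 on the caudal sham arrays. Array 271 was the lowest of the 21 grouped arrays, and arrays 272 and 273 lay within the sham range. The difference was -1.28 (SE 0.42, 2.42-fold lower) and just missed the threshold at an adjusted p of 0.0513. Without array 271 it was -0.71 (adjusted p = 0.062), without arrays 271 and 274 it was -0.41 (adjusted p = 0.206), and without array 272, 273 or 274 it passed, at adjusted p of 0.0272, 0.0178 and 0.0433. Above T6 Vwf read 8.59, 8.64, 8.73 and 8.91 at 48 h, and 9.17, 9.04, 8.54 and 8.99 after sham surgery. This difference was -0.22 (SE 0.39, adjusted p = 1), and the arrays overlapped. Endothelial markers (11 measured genes) averaged 7.21, 8.18, 7.94 and 7.81 on caudal 48 h arrays 271 to 274, all below the 8.22 to 8.33 of caudal sham. In this comparison 12.5% of all 18193 genes were called, with 1277 genes lower. Of the endothelial markers 6 fell (Cldn5, Tek, Kdr, Slco1a4, Abcb1a and Tie1), 0 rose, and their median change was -0.51. Their part in the Vwf values was not tested, and in whole tissue fewer cells of a type and less RNA per cell cannot be told apart.

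Tfpi (chr2:84432855-84476775) encodes the inhibitor of the complex of tissue factor with factor VII. Caudal 48 h arrays 271 to 274 read 8.57, 8.47, 7.76 and 7.35. Caudal sham arrays read 7.25, 7.45 and 7.04. Arrays 271 to 273 lay above all sham arrays, and array 274 lay within their range. Tfpi rose by 0.79 (SE 0.21, 1.73-fold, adjusted p = 0.022), and the call was lost without caudal array 272 (adjusted p = 0.0521), caudal sham array 278 (0.0782) or caudal sham array 280 (0.0984). The other 3 probe sets of Tfpi had differences of 0.75, 0.59 and 0.92, of which the first passed over all probe sets (adjusted p = 0.0431, 0.117 and 0.0637). Rostral 48 h arrays read 7.76, 7.62, 7.30 and 7.54, and rostral sham arrays 7.24, 7.41, 7.48 and 7.62. The rostral difference was 0.12 (SE 0.20, adjusted p = 1).

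Thbd (chr2:148404471-148408188) encodes thrombomodulin, the thrombin receptor of the endothelial surface. It read 10.49 and 10.11 on caudal 48 h arrays 271 and 272, 9.03 on array 273 and 8.22 on array 274. Caudal sham arrays read 8.50, 8.86 and 8.95. Thus 3 clamped arrays lay above the sham range and array 274 lay below it. The difference was 0.70 (SE 0.35, 1.62-fold) and did not pass (adjusted p = 0.169). It was 1.11 without array 274 (adjusted p = 0.00591) and 0.36 without array 271 (adjusted p = 0.479). Above T6 Thbd read 8.51, 8.52, 7.68 and 8.38 at 48 h and 8.44, 8.43, 8.54 and 8.71 after sham surgery. Rostral array 273 was the lowest of all grouped arrays, and the rostral difference was -0.26 (SE 0.33, adjusted p = 1).

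Procr (chr2:155751125-155755478) encodes the receptor that presents protein C to thrombin bound to thrombomodulin. It read 10.92, 9.93, 8.58 and 7.23 on caudal 48 h arrays 271 to 274. Caudal sham arrays read 6.43, 6.69 and 6.71. Every clamped array lay above every sham array, although array 271 exceeded array 274 by 3.69, the widest range of the 8 genes in any group. Procr rose by 2.56 (SE 0.52), 5.90-fold, with an adjusted p of 0.00425. The call held in all 21 fits that left out 1 array, with changes from 1.98 without array 271 to 3.20 without array 274, and it was lost in the fit of the compared groups alone (adjusted p = 0.271). In rostral cord Procr read 7.42, 7.30, 6.56 and 6.64 at 48 h, against 6.67, 6.22, 6.72 and 6.56 after sham surgery. Arrays 271 and 272 were again the higher pair, but the difference of 0.44 (SE 0.48, adjusted p = 1) did not pass.

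Plat (chr8:22757722-22782848) encodes tissue plasminogen activator. It read 11.42, 11.15, 11.09 and 9.65 on caudal 48 h arrays 271 to 274. Caudal sham arrays read 9.69, 9.82 and 9.39. Arrays 271 to 273 lay more than 1 unit above sham and array 274 lay within the sham range. Plat rose by 1.19 (SE 0.28, 2.28-fold, adjusted p = 0.0104), a call lost without caudal sham array 280 (adjusted p = 0.0581). Its other probe set also rose, by 0.58 (adjusted p = 0.0341 over all probe sets). In rostral cord Plat read 10.42, 10.32, 10.58 and 9.90 at 48 h, against 9.76, 9.93, 9.91 and 10.00 after sham surgery. Array 274 was within the sham range there too, and the difference of 0.41 (SE 0.26, adjusted p = 0.945) did not pass.

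Plaur (chr7:24460937-24475970) encodes the urokinase receptor, which focuses plasminogen activation on the surface of leukocytes and migrating cells. It read 10.36, 9.47, 9.31 and 8.40 on caudal 48 h arrays 271 to 274. Caudal sham arrays read 6.59, 6.77 and 6.90. All 4 clamped arrays lay above all 3 sham arrays, and array 271 was again the highest. Plaur rose by 2.63 (SE 0.31), 6.20-fold, with an adjusted p of 4.14e-05, and it was called in all 35 alternatives that gave it a value, with changes from 2.31 to 2.96. In rostral cord it read 7.61, 7.69, 7.98 and 6.88 at 48 h, against 6.83, 6.66, 6.88 and 6.78 after sham surgery. Arrays 271 to 273 were higher than sham, and array 274 equalled the top of the sham range to 2 decimals. The rostral difference was 0.75 (SE 0.28, 95% interval 0.16 to 1.35) and did not pass (adjusted p = 0.415). It passed without caudal arrays 271 and 274, whose spread the pooled fit holds (adjusted p = 0.0175). Plaur stood alone at the top of its order: caudal 48 h, with a mean of 9.38 ± 0.80 (SD, n = 4), did not overlap with rostral 48 h, the next at 7.54 ± 0.47 (SD, n = 4), and from there down each group overlapped the next. How many of all genes had no overlap between the caudal and rostral 48 h groups was not counted.

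Markers of monocytes and macrophages were also higher in caudal cord at 48 h. The mean of the 7 measured markers was 10.22, 9.44, 9.06 and 8.61 on caudal 48 h arrays 271 to 274, against 7.24 to 7.40 in caudal sham. Of these markers 5 rose (Cd14, Cybb, Fcgr1, Msr1 and Adgre1) and 0 fell, where 5.52% of all genes were called as higher. The median change of the markers was 1.81. In rostral cord at 48 h the mean ran from 7.35 to 7.97 and 0 of the 7 passed (0.61% of all genes did). An unadjusted p under 0.05 was found for 2 of the 7 and for 7.08% of all genes. The platelet and megakaryocyte markers averaged 7.23 on caudal array 271 and 6.08 to 6.32 on the other 3, against 6.14 to 6.58 in caudal sham. Of these 6 markers 1 rose, as did 5.52% of all genes. Neutrophil markers averaged 7.98 to 9.80 in caudal cord at 48 h and 7.55 to 9.08 in caudal sham. Heart muscle markers (10 genes) averaged 9.31 to 10.78 on the rostral 48 h arrays and 6.65 to 8.09 on the caudal ones, against 5.86 to 5.99 in sham cord of either region. The part of none of these lists in the values of the 8 genes was tested.

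**Figure D3:**
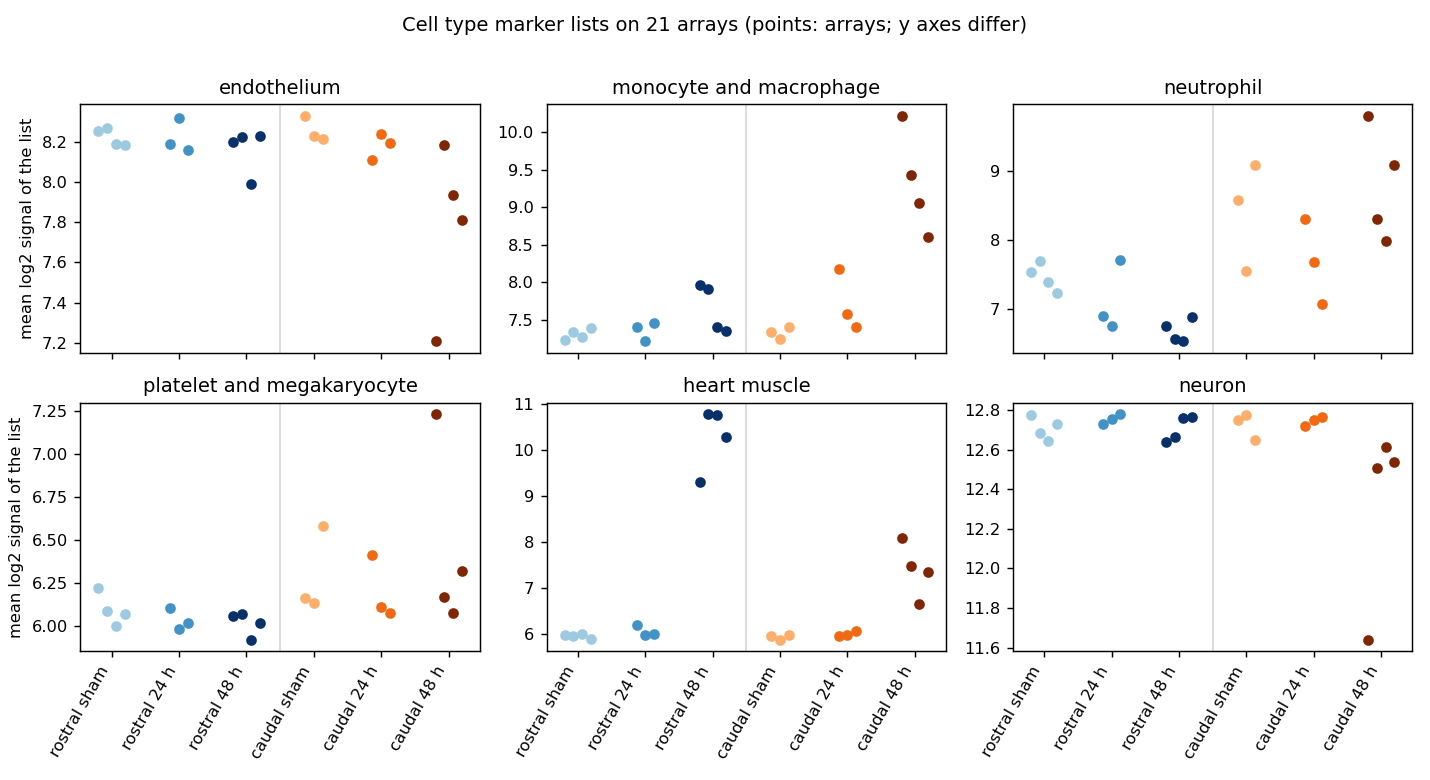
Mean log2 signal (y axis, a scale of its own for each list) of 6 cell type marker lists on each grouped array (points), by region and time (x axis). Monocyte and macrophage markers reach 8.61 to 10.22 on the caudal 48 h arrays, heart muscle markers 9.31 to 10.78 on the rostral 48 h arrays, and caudal array 271 has the lowest endothelial (7.21) and neuronal (11.64) means.

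The caudal 48 h arrays kept an order among themselves. In 5 of the 8 genes (Plat, Plaur, Thbd, Procr and Tfpi) the signal ran from array 271 through 272 and 273 down to 274, an order that 8.38% of all genes had. The macrophage markers had the same order. In Thbs1 array 272 came first and array 274 last. F3 and Vwf differed from the rest, with array 271 the lowest in both.

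**Figure D4:**
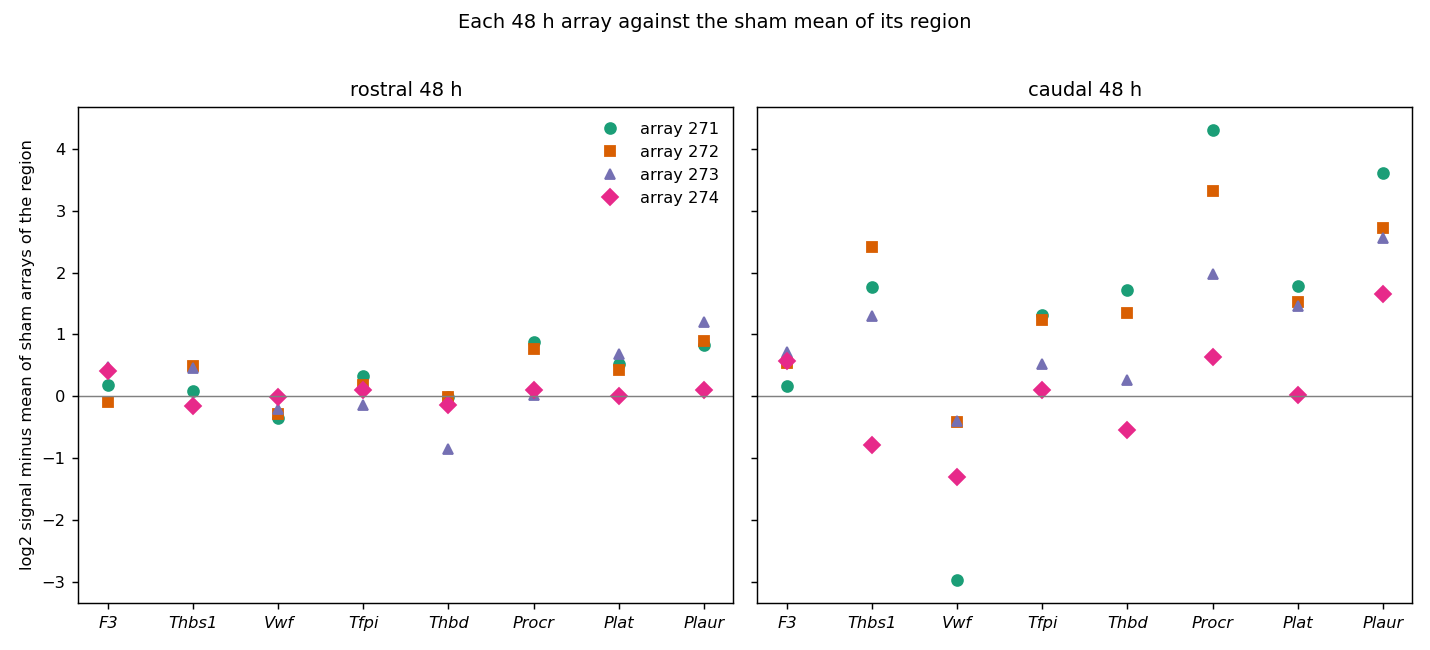
Log2 signal of each 48 h array minus the mean of the sham arrays of its region (y axis) for the 8 genes (x axis), rostral at left and caudal at right, with a symbol for each array number. Caudal array 271 is the highest for Procr, Plaur, Thbd, Tfpi and Plat and the lowest for Vwf, and caudal array 274 is near or below 0 for Plat, Tfpi, Thbd and Thbs1.

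At 24 h none of the 8 genes passed the test against sham. In caudal cord 0 of 8 passed (0.0055% of all genes, 1 gene, was called), and 0 of 8 had an unadjusted p under 0.05 (2.9% of all genes). Changes ran from -0.19 (Thbd) to 0.48 (Plaur). Plaur read 7.58, 7.20 and 6.91 on caudal 24 h arrays 281 to 283, and its difference was 0.48 (SE 0.33, 95% interval -0.21 to 1.16). Plat read 9.91, 10.03 and 10.00, above each sham array, with a difference of 0.35 (SE 0.30). The difference of Thbs1 was -0.09, and 0.13 without the arrays numbered 283. Groups did not overlap for 3 of the 8 genes (Plat, Plaur and Tfpi) and for 19.1% of all genes. In rostral cord 0 of 8 passed and 0% of all genes did, with changes from -0.09 (F3) to 0.61 (Thbs1, 0.10 without the array numbered 283). There 0 of 8 had an unadjusted p under 0.05 (0.781% of all genes).

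Within the clamped cord, the later time was set against the earlier. In caudal cord 2 of the 8 genes rose from 24 h to 48 h, against 6.69% of all genes called. Plaur rose by 2.15 (SE 0.31, adjusted p = 0.00068) and Procr by 2.47 (SE 0.52, adjusted p = 0.00778). For both the arrays of these times did not overlap, and the share of all genes without overlap was not counted for this comparison. The call of Procr was lost without caudal array 283 (adjusted p = 0.0529) and without both arrays of that number (0.0724), and the count was 6 without caudal array 274 and 7 without caudal arrays 271 and 274. Thbs1 (1.25), Thbd (0.89), Plat (0.84), Tfpi (0.51), F3 (0.45) and Vwf (-1.14) did not pass, although all 8 genes had an unadjusted p under 0.05, as did 25% of all genes. In rostral cord 0 of 8 passed between these times (0.363% of all genes), and 2 (F3 and Plaur) had an unadjusted p under 0.05 (5.25% of all genes). The largest difference was that of Plaur at 0.69 (SE 0.31, adjusted p = 0.847).

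The regions were then compared at each time. In sham cord 0 of the 8 genes passed (0.335% of all genes did), and 1, F3, had an unadjusted p under 0.05 (5.51% of all genes). At 24 h 0 of 8 passed (0% of all genes), and 0 of 8 had an unadjusted p under 0.05 (0.313% of all genes). The 24 h difference of Thbs1 was 0.29, and 1.02 without the arrays numbered 283 (adjusted p = 1 in both fits). At 48 h 4 of the 8 genes were higher in caudal than in rostral cord and 0 were lower, where 9.71% of all genes were called and 5.57% as higher. Procr was higher by 2.19 (SE 0.48, adjusted p = 0.00792), Thbs1 by 1.94 (SE 0.48, adjusted p = 0.0155), Plaur by 1.84 (SE 0.28, adjusted p = 0.000573) and Thbd by 1.19 (SE 0.33, adjusted p = 0.0279). Of these 4 genes, Thbd and Thbs1 did not pass against caudal sham (adjusted p = 0.169 and 0.123). At 48 h the caudal change minus the rostral change passed for neither Thbd nor Procr (adjusted p = 0.41 and 0.253). The call of Thbd was lost without caudal array 271 or 272 or rostral array 273 or 274 (adjusted p from 0.0563 to 0.112) and that of Thbs1 without rostral array 274 (adjusted p = 0.0528). Plat (0.52), Tfpi (0.49), F3 (-0.06) and Vwf (-0.80) did not pass. Without caudal array 274, or without caudal arrays 271 and 274, Plat and Tfpi passed as well and the count was 6. The difference of Vwf was 0.06 without caudal arrays 271 and 274 and 0.02 with array weights. Marker lists of other cells also differed between the regions at 48 h. Of the neutrophil markers 5 of 8 were higher in caudal cord (median difference 2.39), of the monocyte and macrophage markers 5 of 7 (1.65) and of the Schwann cell markers 4 of 4 measured (1.90), while all 10 heart muscle markers were lower (-3.07). Schwann cell markers were already higher in caudal than in rostral sham cord, 3 of 4 (median difference 2.00). Neutrophil markers had a median difference of 1.22 there, with 0 of 8 called and 4 of 8 at an unadjusted p under 0.05. Against sham of the same region their median change at 48 h was 0.25 in caudal cord, where 1 of 8 rose (5.52% of all genes). In rostral cord it was -1.12, with 0 of 8 called (0.61% of all genes). The part of these lists in the differences of the 8 genes was not tested.

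Whether the response to the clamp differed between regions was tested as the caudal change minus the rostral change. At 24 h 0 of 8 genes passed, as did 0% of all genes, and 0 of 8 had an unadjusted p under 0.05 (1.86% of all genes). The 24 h value of Thbs1 was -0.70, and 0.03 without the arrays numbered 283. At 48 h 1 of 8 passed, where 0.561% of all genes were called. Plaur changed by 1.88 more below T6 (SE 0.42, adjusted p = 0.0482). This call sat at the threshold: it was lost in 17 of the 21 fits that left out 1 array, with adjusted p from 0.0522 to 0.161, and held only without caudal array 271, 274, 281 or 283. It was also lost without both arrays numbered 283 (adjusted p = 0.0719). Procr had a larger difference of 2.12 with a wider error (SE 0.71, adjusted p = 0.253), and it passed without array 274 (2.77, adjusted p = 0.00454). Plat (0.78), Thbd (0.96), Thbs1 (0.95), Tfpi (0.67), F3 (0.26) and Vwf (-1.06) did not pass, so no difference in response between regions was shown for them. The count of 1 was 5 without caudal array 274 and 4 without caudal arrays 271 and 274.

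The 8 genes were set beside a wider list of the pathway, of which 47 of 53 genes were measured. In caudal cord at 48 h 8 of the 47 rose and 1 fell, and their median change was 0.28 against 0.00 for all genes, of which 12.5% were called and 5.52% as higher. The median was 0.12 without caudal array 271 and 0.14 without caudal arrays 271 and 274. The counts were 11 and 3 without caudal arrays 271 and 274, 14 and 3 without caudal array 274, and 5 and 0 without any one of the caudal sham arrays. By role the lists are short, and each count stands beside the same 5.52%. Among procoagulant factors and fibrinogen 3 of 15 rose. Fga, the fibrinogen alpha chain, read 9.25, 9.58, 7.58 and 4.40 on arrays 271 to 274 against 3.91 to 4.28 in caudal sham, a rise of 3.55 (SE 0.90, adjusted p = 0.0164) in which array 274 stayed near sham. F13a1, the A chain of the fibrin-crosslinking factor XIII, rose by 1.01 (SE 0.20, adjusted p = 0.00374), and F10, factor X, by 0.88 (SE 0.18, adjusted p = 0.00421). Fgb and Fgg, the other fibrinogen chains, had differences of 0.44 and 0.56 that did not pass (adjusted p = 0.365 and 0.316).

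Of the anticoagulants 2 of 9 rose, and 1 of these, Tfpi2, was not also counted with the inhibitors of fibrinolysis below. Tfpi2, a relative of Tfpi that inhibits plasmin and trypsin, read 10.11, 8.01, 6.54 and 5.08 on arrays 271 to 274 against 3.92 to 4.26 in caudal sham, a rise of 3.33 (SE 0.75, adjusted p = 0.00789). Pros1, the protein S cofactor of activated protein C, rose by 1.14 (SE 0.27, adjusted p = 0.0115), whereas Proc itself, made by the liver, had a difference of 0.22 that did not pass (adjusted p = 0.264). Of the plasminogen activation genes 2 of 6 rose: S100a10, a plasminogen-binding protein of the cell surface, by 1.24 (SE 0.34, adjusted p = 0.0244) and Plau, the urokinase that binds the product of Plaur, by 0.35 (SE 0.11, adjusted p = 0.0392). Plau was near the floor: it read 5.66, 5.18, 5.13 and 5.22 on arrays 271 to 274 and 4.97, 4.90 and 4.97 in caudal sham. The lower quartile of an array ran from 5.17 to 5.52, the highest on array 271. The caudal sham values of Fga and Tfpi2 lay below that range. The calls of Fga, S100a10 and Plau were lost without any one of the caudal sham arrays, and that of Plau also without rostral sham array 277 or 278, without both arrays numbered 283 and without caudal arrays 271 and 274. Among inhibitors of fibrinolysis 0 of 3 measured passed, and 2 had an unadjusted p under 0.05, as did 34.3% of all genes. The differences of the 3 were 0.44 for Serpinf2, 0.74 for Serpinb2 and -0.51 for Serpini1. Of the protease-activated receptors 0 of 3 measured passed and of the factor processing genes 0 of 4, and 0 of either group had an unadjusted p under 0.05.

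Of the partners of von Willebrand factor and thrombospondin 1 of 7 rose and 1 fell. Cd36, a thrombospondin receptor that heart muscle and fat also express, rose by 1.34 (SE 0.27, adjusted p = 0.00355), and Gp1bb, a subunit of the platelet receptor of von Willebrand factor, fell by 0.89 (SE 0.26, adjusted p = 0.03), a call lost without any one of the caudal sham arrays. In rostral cord at 48 h Cd36 was the 1 gene of 47 that passed, where 0.61% of all genes did. Its rise was 3.54 (SE 0.25, adjusted p = 3.75e-08). It read 7.41, 8.92, 7.99 and 7.65 on rostral 48 h arrays 271 to 274 and 4.33 to 4.53 in rostral sham, the latter below the lower quartile of those arrays. Of the 10 heart muscle markers 9 rose in the same comparison, and their part in the Cd36 value was not tested. In rostral cord at 48 h 4 of the 47 had an unadjusted p under 0.05, as did 7.08% of all genes. Fga read 7.02, 7.60, 4.54 and 4.25 on rostral 48 h arrays 271 to 274, against 4.24 to 4.52 in rostral sham. Pros1 read 9.48, 9.48, 8.59 and 8.28 there, against 8.22 to 8.39. Plau, at 4.92 to 5.06, stayed within its rostral sham range of 4.84 to 5.14. At 24 h 0 of 47 passed in either region. An unadjusted p under 0.05 was found for 2 in caudal cord (2.9% of all genes) and 0 in rostral cord (0.781%).

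**Figure D5:**
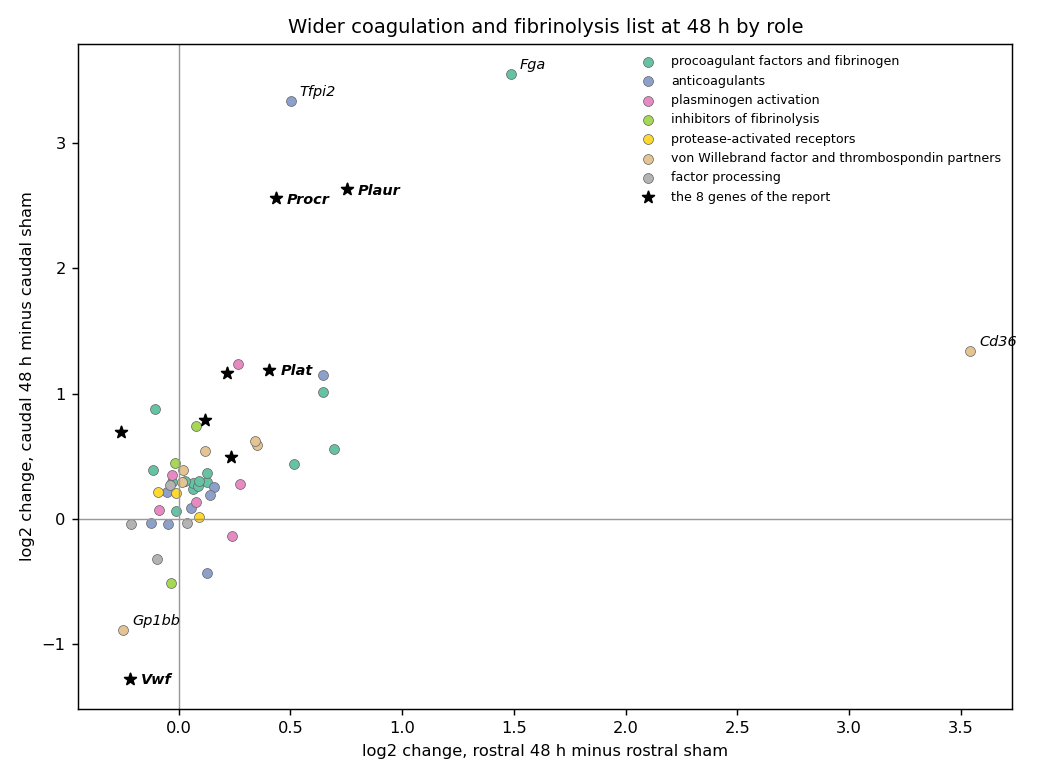
Log2 change against sham at 48 h in rostral (x axis) and caudal (y axis) cord for the 47 measured genes of the wider list, coloured by role, and for the 8 genes (stars). Fga, Tfpi2, Procr and Plaur lie highest on the caudal axis, between 2.56 and 3.55, and Cd36 lies apart on the rostral axis at 3.54.

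For each gene the 3 most similar profiles over the 21 grouped arrays were listed by Pearson correlation, as a description of arrays that share groups and libraries. Plaur ran closest to Cd14 (r = 0.98), the lipopolysaccharide coreceptor of monocytes, then Ccl9 (0.98) and Cd300lf (0.97). Procr ran closest to Slfn1 (0.99), Ucn2 (0.98) and Stx11 (0.98), and Plat to Map3k8 (0.95), Sav1 (0.94) and Srxn1 (0.94). Thbs1 ran closest to Thbs4 (0.91), Tnc (0.90) and Wwtr1 (0.90), and Thbd to Gjb2 (0.94), Arsi (0.92) and Ankrd33b (0.92). Tfpi ran closest to Mak16 (0.95), Pde12 (0.94) and Tgif1 (0.94), and Vwf to Mast2 (0.95), Rnpepl1 (0.95) and Map1s (0.95). F3 had the loosest neighbours, Arrdc3 (0.82), Gjb6 (0.78), a gap junction gene of astrocytes, and Arrdc2 (0.74). Of the 6 astrocyte markers, which include Gjb6, 1 rose in caudal cord at 48 h (5.52% of all genes), with a median change of 0.08. In rostral cord at 48 h 0 of the 6 passed (0.61% of all genes). The part of these markers in the F3 values was not tested.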

How the data were processed

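Total RNA of spinal cord had been amplified, labelled and hybridised to 22 Affymetrix Mouse430_2 arrays. The deposited values are log2 signals; RMA is the method in the submitters' processing notes, and its version is not given in the sources used here. RMA quantile-normalises the arrays, so changes are relative to the bulk of probe sets. Of 45101 probe sets, 34945 carry 1 gene symbol in the platform annotation, and the brightest per symbol gave 18193 genes. The 21 arrays of the 6 groups entered a group-means model in limma 3.58.1 (R 4.3.3; lmFit, eBayes; spread pooled over groups), with two-sided tests and Benjamini-Hochberg adjustment over all genes in each of 11 contrasts. The fit was tested on simulated data. Genes were named by rule: the 8 genes, up to 3 called genes of each role in the wider list with the largest change, and the 3 closest profiles; values of other listed genes were chosen after they were seen. The members, lists and motifs were chosen with earlier results of these data known, and the alternatives without caudal arrays 271 and 274, and those of the wider list, after seeing the data. Arrays sharing a title number were not treated as paired. The number of arrays limits precision, and so do the arrays that stood apart.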

Additional observations from a re-analysis of the deposited data

Results flagged for a closer look

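Rostral array 273 at 48 h read 7.68 for Thbd and lay apart from the other 3 rostral 48 h arrays (8.38 to 8.52); its gap to the nearest was 0.841 of the group's range, past the 95% limit of Dixon's test for an outlying value, as in 1 of 24 tested groups of 4, and chance gives about 1 in 20. The change of Plaur after the clamp at 48 h was 1.88 larger in caudal than in rostral cord by the test of the difference itself. In caudal cord the changes against the shared sham arrays differed between the times: Plaur was 2.15 and Procr 2.47 higher at 48 h than at 24 h.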

How the results depend on the processing

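All 37 alternatives kept the direction of every called difference of the 8 genes. In caudal cord at 48 h against sham, Plaur kept its call in 35 of 35 alternatives, Procr in 34 of 35, Plat in 34 of 36, Tfpi in 31 of 35 and F3 in 27 of 36. Fitting the compared groups alone left 1 gene called in that comparison and 0 for caudal 48 h against caudal 24 h. It left 0 for caudal against rostral 48 h, 0 for the difference of clamp effects at 48 h and 1 (Thbs1) for caudal against rostral sham. Fewer samples then estimate the spread, and the groups also differed in spread. The SD of Procr was 1.61 in caudal 48 h and 0.12 to 0.44 in the other groups, that of F3 0.24 and 0.10 to 0.25. Where spreads differ, the pooled error is too small for comparisons with the group of wider spread. It is too large for comparisons among groups of narrower spread. Array weights, which gave caudal array 271 a weight of 0.0265, called 2 genes for rostral 48 h against sham, 6 for caudal 48 h against 24 h, 1 for rostral 48 h against 24 h and 3 for the difference of effects. Leaving out caudal arrays 271, 274 and 280 gave 1, 7 and 3 genes for rostral 48 h against sham, caudal 48 h against 24 h and the difference of effects; leaving out the arrays numbered 283 as well gave 1, 6 and 4, and leaving out only 271 and 274 gave 1, 7 and 4. Without the arrays numbered 283 alone, 1 gene was called for caudal 48 h against 24 h and 0 for the difference of effects, which was also 0 with the mean of probe sets, with every probe set by itself and with quantile normalization repeated. The causes were not tested. With 1 array left out in turn, the counts ran from 2 to 8 for caudal 48 h against sham, 1 to 6 for caudal 48 h against 24 h, 2 to 6 for caudal against rostral 48 h and 0 to 5 for the difference of effects, the highest each time without caudal array 274. The number of all genes called ranged over the alternatives from 142 to 6245 for caudal 48 h against sham (2282 as reported), 35 to 1850 for rostral 48 h (111), 0 to 293 for caudal 24 h (1), 0 to 3 for rostral 24 h (0), 0 to 4067 for caudal 48 h against 24 h (1218), 13 to 1124 for rostral 48 h against 24 h (66), 0 to 1256 for sham by region (61), 0 to 60 for 24 h by region (0), 93 to 3801 for 48 h by region (1766), 0 to 35 for the difference of effects at 24 h (0) and 19 to 1409 at 48 h (102).

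The replicate block, the number that arrays share, was fitted as a random effect (correlation 0.138), where 6 genes were called in caudal cord at 48 h, Vwf being added at an adjusted p of 0.0474, and as a fixed effect, where 4 genes were called for caudal against rostral 48 h; neither block changed another count of called genes among the 8. No label used here says that a number marks one animal. Correlations of deviations within a number ran from -0.45 to 0.53; 6 of 10 were above 0.1, and in these 6 the caudal array's closest rostral array was that of its own number, a hint of pairing from the data that the other 4 numbers (280 to 283) do not share. A filter that kept genes above the median level left 4 of the 8 (F3, Plat, Thbd and Vwf), so it gave no count.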
